A study of Mus musculus with 3 samples.

Results

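RNA from hepatocyte-like cells (iHep) was compared with RNA from spleen fibroblasts (MF) given a control virus. The members described here are all genes that the array could read in at least 1 of the 2. Both cell populations were primary mouse fibroblasts taken from spleens remodelled with SiO2 (silica), both are labelled female, and both were collected after 14 days of culture following transduction with a lentivirus. MF received the control virus LV-NC and iHep the virus LV-3TF, which carries 3 factors that the labels do not name; strain, age and the promoter of the virus are not given in the sources used here. Each population was read on 1 one-colour (Cy3) array, hybridised with RNA pooled from 5 samples and depleted of globin messages. The third array of the series, of freshly isolated primary hepatocytes (PH), was the positive control of the study and is used only for levels given side by side. The comparison asks which gene programmes differed between cells given the factors and cells given the control virus. Of 20645 named genes on the array, 17241 could be read well above background in MF, iHep or both, and these are the genes compared.

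Fibroblasts make and remodel the extracellular matrix, pull on it with actin and myosin fibres, and keep a positional identity set by HOX and other homeobox genes. Epithelial cells such as hepatocytes are instead joined to each other by cadherin junctions, desmosomes and tight junctions, carry keratin filaments and rest on a basement membrane of laminins and type IV collagen. Forced expression of liver transcription factors in fibroblasts is a known way to obtain hepatocyte-like cells, and it combines loss of the starting programme with gain of epithelial and hepatic genes.

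All levels below are log2 signals relative to the 75th percentile of the array, which is level 0, and a difference is the iHep level minus the MF level. With 1 array of pooled RNA a side there are no replicates, so no difference has a test and "higher" and "lower" describe these 2 arrays. Likewise "went from" and "stayed" set the MF array beside the iHep array and do not follow the same cells over time. Repeated spots of a probe differed little (SD of a log2 difference 0.126, 295 probes), whereas different probes of the same gene gave differences with a pooled SD of 0.847 (3707 genes), so a difference of about 2-fold at a single gene is of the size at which probes disagree. The 75th percentile was 544.3 signal units on the MF array and 3751.5 on the iHep array, and the MF array was scanned apart from the other 2, so that scan and group cannot be told apart. A gene that was not well above background on 1 of the 2 arrays has only a bound, written "at least".

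In iHep 3451 genes were at least 2-fold higher (20% of the genes compared) and 4038 were at least 2-fold lower (23.4%), while 9752 lay within 2-fold. The greater differences were mostly downward. At least 8-fold higher were 470 genes (2.73%), against 1183 genes at least 8-fold lower (6.86%). The genes 8-fold higher had a median level of -4.91 in MF and -0.42 in iHep, and those 8-fold lower had a median level of -0.50 in MF and -6.65 in iHep. In PH the median levels of these 2 sets were -3.30 and -2.25. The 801 genes read in MF alone included 124 above level 0 and 467 at least 8-fold lower in iHep, whereas the 2169 genes read in iHep alone were mostly dim, with a median level of -6.08, 6 above level 0 and 140 at least 8-fold higher. The lowest level well above background was -6.30 in MF and -7.32 in iHep, so for genes of the same level a bound downward can be larger than a bound upward. Some great differences of genes read on both arrays, as for Gas6, Fzd1 and Hspb1, rest on iHep readings close to this lowest level. The share of higher genes among all genes past 2-fold was 46.1%, and it was 28.0% when the background was corrected with normexp in place of the scanner software, 49.9% under quantile normalization and 49.8% in the authors' values. In 20 bins of mean level the median difference ran from -0.45 to 0.23 except among the highest-level genes, where it was -0.68, so that lists of very highly expressed genes start below 0.

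**Figure D1:**
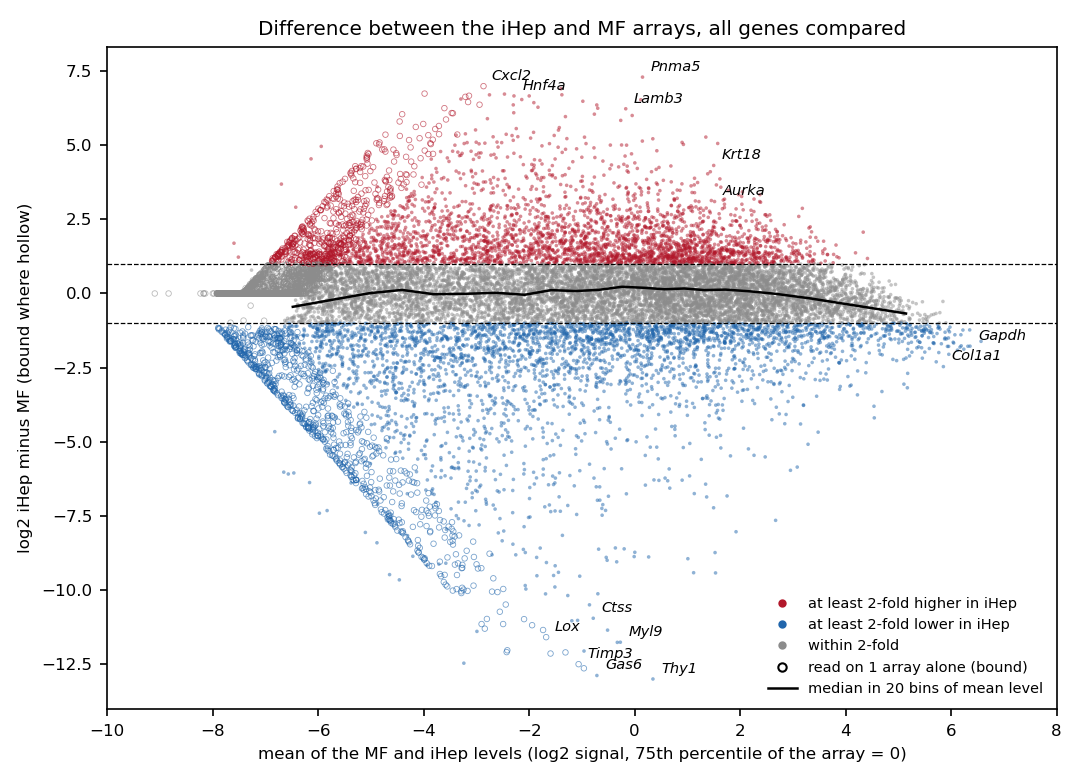
Difference between iHep and MF (vertical axis, log2) against the mean of the 2 levels (horizontal axis, log2 signal with the 75th percentile at 0) for the 17241 genes compared, with bounds hollow and the median of 20 level bins as a line. Genes lower in iHep reach a difference of -12.99 (Thy1), genes higher reach 7.29 (Pnma5), and the line bends down to -0.68 at the highest levels.

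The labels were set against marker genes of the 2 cell types. All 10 fibroblast markers were well above background in MF and all were lower in iHep by at least 2-fold, and their summed level, as log2, was 9.26 in MF and 6.09 in iHep. Lum was the only one of them not well above background in iHep. All 5 smooth muscle and myofibroblast markers were lower too, from a summed level of 7.48 to -2.0. Of 10 hepatocyte markers 6 were well above background in MF and 9 in iHep. Of the 9 compared, Hnf4a, Apob and Cyp3a11 were higher and the others lay within 2-fold. The summed level was -1.61 in MF, 1.57 in iHep and 9.08 in PH. Hnf4a, at 1.04, made up the largest part of the iHep sum, and whether its probe read a copy carried by the virus was not tested. Albumin, the defining secretory product of hepatocytes, read -5.20 in MF, -4.75 in iHep and 6.67 in PH and so lay within 2-fold between the fibroblasts and the cells labelled hepatocyte-like. Of 6 epithelial markers 4 were higher in iHep, with Epcam not well above background on either array.

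Markers of macrophages differed as well. All 8 measured macrophage markers were well above background in MF, and all were lower in iHep by at least 2-fold there, where C1qa and C1qc were not well above background; their summed level was 6.44 in MF and 0.58 in iHep. In RNA of a whole population, fewer cells of a type and less RNA per cell cannot be told apart. Markers of T and B cells (3 of 5 compared) and of erythroid cells (1 of 4 measured compared) lay within 2-fold, but in the longer lists 7 of 18 lymphocyte genes were higher and 3 lower, and 4 of 15 erythroid and platelet genes were lower and 2 higher. Of 4 endothelium markers compared 2 were lower, and of 25 genes of the endothelium list 12 were lower and 4 higher. Of the kidney markers, Pax8 and Cdh16 were higher in iHep and the summed level was -3.09 in MF and 1.76 in iHep. Several lists below (lysosome, complement, matrix proteases, prostanoids, chemokines and interferon) hold genes that macrophages also express, and the part of these cells in the results was not tested. As a check of the sex label, 4 Y-linked genes (Ddx3y, Eif2s3y, Kdm5d and Uty) had no probe well above background in MF or iHep. On chromosome Y 5 other genes were read in MF or iHep, 40% of them higher and 20% lower in iHep. Which transcripts their probes read was not tested. Xist, the RNA that coats the inactive X chromosome of female cells, read -2.44 in MF, and in iHep it was not well above background, which bounds the difference at 29.5-fold or more downward.

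**Figure D2:**
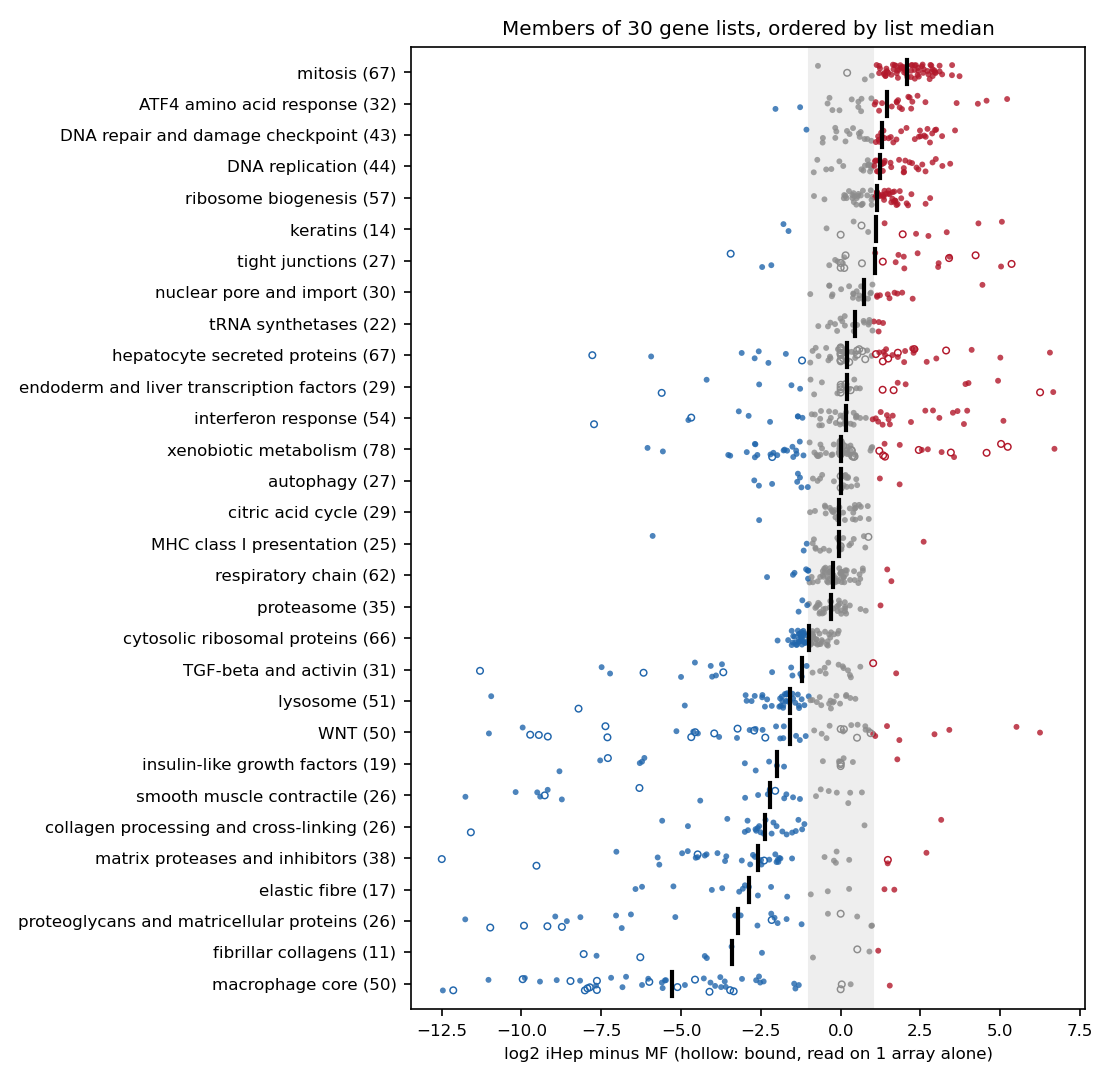
Differences between iHep and MF (log2) for the members of 30 gene lists, 1 point a gene, hollow where the value is a bound, with the list median as a bar, the number of genes compared in brackets and the 2-fold zone shaded. Mitosis genes have the highest median (2.09), macrophage genes the lowest (-5.29), and the medians of the respiratory chain, the proteasome and the citric acid cycle lie inside the shaded zone; the bar of the cytosolic ribosomal proteins moves to about 0 under quantile normalization and in the authors' values.

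The fibrous matrix was lower in iHep in most of its parts. Of 11 fibrillar collagen genes 7 were lower and 1 was higher (median difference -3.42), but the members were uneven. Type I collagen, the main fibre of scar and tendon, kept a high level: Col1a1 read 7.09 in MF and 4.62 in iHep, and Col1a2 6.64 and 2.45. Col3a1, the fine-fibre collagen of the spleen's reticular meshwork, went from 6.50 to -1.15, 201-fold lower. Col11a1, which seeds thin fibrils, went from 0.73 to not well above background and was at least 265-fold lower. Against this, Col5a3 read 0.97 in MF and 1.87 in iHep, and Col11a2, 2.26-fold higher but within 2-fold under normexp, was the single fibrillar gene past 2-fold upward. Chains of the same collagen type differed by unlike amounts, as for Col5a1 (5.93 in MF and 2.52 in iHep) and Col5a2 (1.46 and -2.79) beside Col5a3. Among 15 other collagens 9 were lower and 1 higher, with Col6a2, Col6a1 and Col8a1 17.7-fold lower, 9.40-fold lower and 5.35-fold lower, and the hemidesmosome collagen Col17a1 3.46-fold higher (within 2-fold under normexp).

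The enzymes that finish collagen were lower almost without exception. Of 26 genes for collagen processing and cross-linking 24 were lower and 1 was higher (median -2.38). Lox, the oxidase that starts the cross-links, read 4.26 in MF, and in iHep it was not well above background (at least 3072-fold lower), and its relative Loxl2 went from 4.06 to -1.53. The propeptide proteinases Adamts2 and Bmp1 were 27.6-fold lower and 8.01-fold lower (Bmp1 within 2-fold and of the opposite sign, 0.34, in the authors' values), and the collagen chaperone Fkbp10 7.55-fold lower. Loxl4 stayed within 2-fold at -0.87 and -0.12. Pcolce2, an enhancer of propeptide cleavage, was the exception upward, from -1.12 to 2.03. The elastic fibre list had 12 of 17 genes lower and 2 higher. Fibrillin Fbn1 read 4.78 in MF and -0.46 in iHep, and Mfap5, Fbln1 and Fbln5 were 86.1-fold lower, 74.7-fold lower and 13.1-fold lower. The 2 genes upward, Ltbp4 (3.21-fold higher) and Ltbp1 (2.59-fold higher), both encode proteins that hold latent TGF-beta in the matrix, while elastin itself, Eln, was low and within 2-fold.

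Of 26 proteoglycan and matricellular genes 21 were lower and none was higher (median -3.22, and relative to all genes -2.0 in the authors' values). Postn, a matricellular protein of remodelling tissue, went from 5.55 to -6.21, a difference of -11.76. Ogn and Aspn, of the small leucine-rich proteoglycans, were well above background in MF alone, at 2.60 and 1.86, and were at least 969-fold lower and at least 583-fold lower. Thbs1, an activator of latent TGF-beta, read 5.48 in MF and -3.46 in iHep. Spp1, Matn2 and Vcan lay within 2-fold. Spp1, osteopontin, read 2.55 in MF and 3.06 in iHep, and the large proteoglycan Vcan 1.26 and 0.86.

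Of 38 matrix proteases and their inhibitors 30 were lower and 3 were higher, with a median of -2.59. Mmp2, a gelatinase made by fibroblasts, read 2.21 in MF and was not well above background in iHep, and the inhibitor Timp3 went from 5.19 to not well above background (at least 5776-fold lower). Mmp12, the elastase of macrophages, read 0.70 and -6.33. Plau, the urokinase protease, was 51.3-fold lower, whereas its receptor Plaur was 2.78-fold higher. Adamts7 was 6.44-fold higher, and the sheddases Adam10 and Adam17 stayed within 2-fold, Adam10 at 3.01 and 2.80. The hyaluronan synthases differed by isoform: Has2 (at least 186-fold lower) and Has1 (-2.52 in MF and -7.04 in iHep) were lower, and Has3 was read in iHep alone (at least 2.53-fold higher, within 2-fold under normexp).

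The basement membrane list was divided rather than lowered: of 22 genes 12 were lower and 6 were higher. The laminin alpha chains of mesenchyme and vessels were among the lower genes, with Lama2 at 1.52 in MF and -6.48 in iHep and Lama4 at 1.77 and not well above background (at least 547-fold lower). The nidogens that link laminin to type IV collagen were lower too, Nid1 from 5.94 to -2.09 and Nid2 at least 318-fold lower. Chains of epithelial laminins went the other way. Lamb3, a chain of the epidermal anchoring laminin, read -3.28 in MF and 2.94 in iHep (74.9-fold higher). Lama5, the alpha chain of most adult epithelia, was 2.32-fold higher, the proteoglycan Agrn 2.44-fold higher (within 2-fold in the mean of its probes) and Col18a1 10.1-fold higher. The third chain of the anchoring laminin, Lama3, was low on both arrays at -2.99 and -3.38. Integrins, the receptors for these proteins, were divided as well: Itga5 and Itga1, which bind fibronectin and collagen, were 6.31-fold lower and 7.01-fold lower, and Itga6 and Itga3, which bind laminin, 3.14-fold higher and 2.25-fold higher (Itga3 within 2-fold under normexp). The shared beta chain Itgb1 read 3.12 in MF and -0.15 in iHep. Itgb6, a beta chain of epithelia, was read in iHep alone (at least 4.56-fold higher, within 2-fold under normexp and in the mean of its probes).

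**Figure D3:**
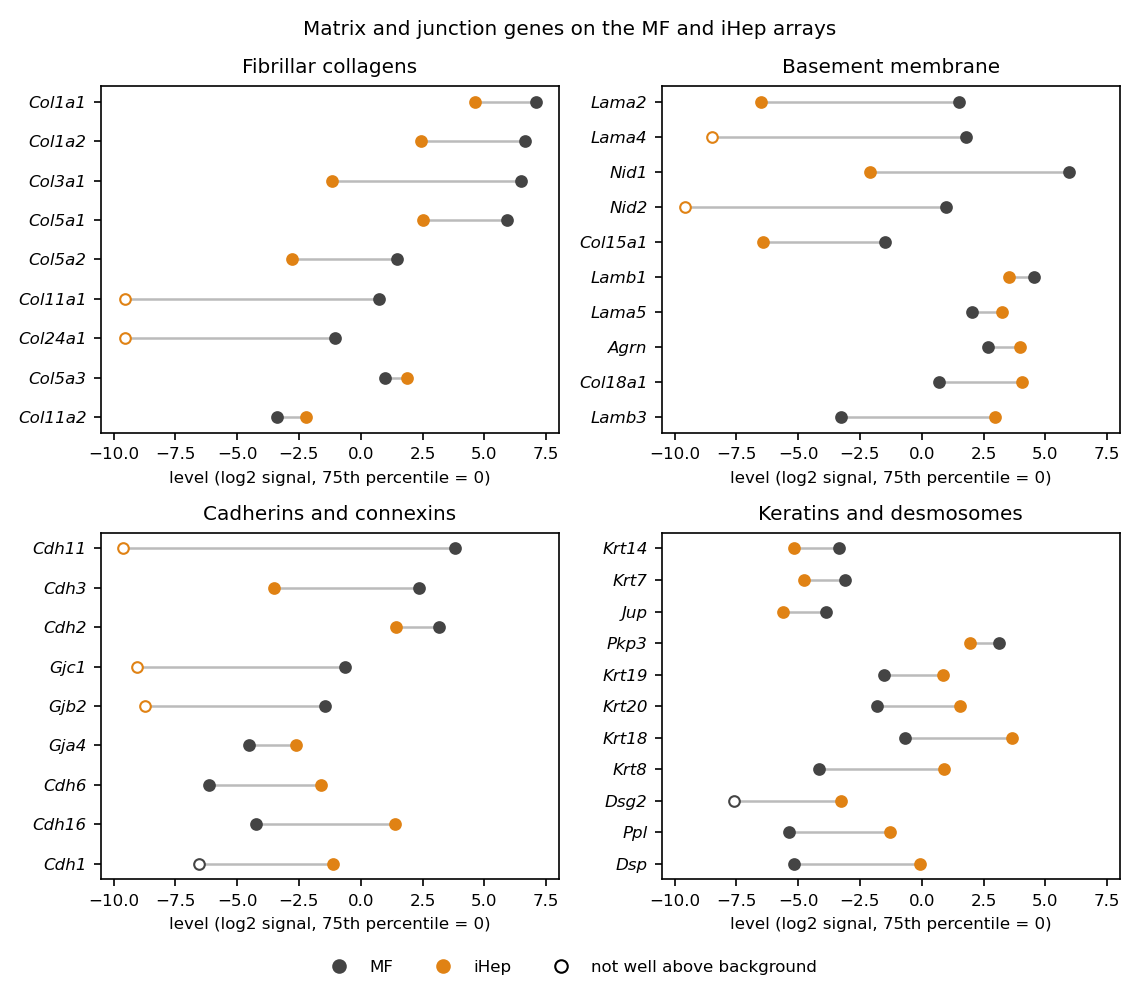
Levels on the MF array (dark) and the iHep array (orange) of chosen matrix and junction genes, as log2 signal with the 75th percentile at 0, hollow where a reading was not well above background. The lines run to the left in iHep for Lama2 and Nid1 and to the right for Lamb3 and Col18a1, and Cdh11 was well above background in MF alone and Cdh1 in iHep alone; levels of different genes are not comparable.

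Of 26 genes of the contractile apparatus 19 were lower and none was higher, and the median was -2.22 (relative to all genes -1.30 in the authors' values). Myl9, the regulatory light chain, read 5.61 in MF and -6.15 in iHep, Acta2, smooth muscle actin, 5.82 and -3.59, and calponin Cnn1 3.82 and -6.36. The striated and enteric actins Acta1 and Actg2 were 727-fold lower and 579-fold lower. The non-muscle myosin heavy chain Myh10 was at least 618-fold lower. Tagln2, Tpm3 and Smtn stayed within 2-fold, Tagln2 at 4.72 and 4.60. Of 43 focal adhesion and caveola genes 24 were lower and 5 higher, among them Vcl, the adhesion plaque protein vinculin, at 2.65 in MF and -2.18 in iHep.

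Many contractile genes carry a CArG box, the site bound by serum response factor, close to their start. Among the 23 contractile genes compared that have a promoter in the RefSeq table (250 bases before the start, build GRCm38.p6, both strands), 21.7% held a CArG box, against 1.58% of all 13673 compared genes with a promoter there and 1.47% of the 32851 promoters in the table. Across all compared genes the box went with a small difference in share: genes with it had a median difference of 0.00, and 28.7% of them were lower against 22.9% of those without. The stretch around the box is shown for 4 of the 5 contractile genes that held one. They were taken in order of the greatest decrease, an order that favours genes lower in iHep, and all 4 were lower. The differences were -11.76 for Myl9 (chr2:156775293-156775322, plus strand), -9.51 for Acta1 (chr8:123894829-123894858, minus), -1.77 for Cnn2 (chr10:79988534-79988563, plus) and -1.28 for Myl6 (chr10:128493040-128493069, minus), with the box in capitals. A match describes letters in this window and is not a tested site. Here and for the motifs below the list was chosen by gene function, so a higher share in it describes the list and not the 2 arrays.
Myl9: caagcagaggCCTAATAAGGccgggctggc
Acta1: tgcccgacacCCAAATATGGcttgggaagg
Cnn2: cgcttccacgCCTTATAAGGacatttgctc
Myl6: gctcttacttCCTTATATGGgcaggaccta
The 4 boxes have unlike A and T cores, and one was present in Myl9 and Acta1, with great differences, as in Cnn2 and Myl6, with small ones (Myl6 within 2-fold under quantile normalization and in the authors' values).

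Of 30 surface proteins of mesenchyme 21 were lower and 3 higher (median -2.24). Thy1, the fibroblast glycoprotein with the greatest difference of all genes read on both arrays, went from 6.84 to -6.15. Podoplanin (Pdpn), the marker of the spleen's reticular fibroblasts, read 4.70 in MF and was not well above background in iHep. The collagen receptor Itga11 read 5.16 and -6.19, and the pericyte protein Cd248 4.36 and -5.76. The other pericyte proteoglycan on the list, Cspg4, went the opposite way, from -3.45 to 1.60 (33.2-fold higher). The ectonucleotidases went both ways: Entpd1 was at least 38.4-fold lower, Entpd2 6.32-fold higher and Nt5e, which makes adenosine, 3.66-fold higher. S100a4 and Mcam, both used as mesenchymal markers, stayed within 2-fold and at high levels on both arrays.

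Of 37 regulators of mesenchyme 19 were lower and 3 higher. Twist1, a driver of mesenchymal state, read 2.69 in MF and was not well above background in iHep, and Prrx2, Foxf2 and Osr1 were likewise read in MF alone, at 2.73, 0.06 and -0.95. Foxc1 was 154-fold lower while its close relative Foxc2 was 2.05-fold higher (within 2-fold under quantile normalization). Snai2, a repressor of epithelial genes, read 2.91 in MF and 2.30 in iHep, and Zeb2, another, was 2.17-fold higher by its brighter probe while a second probe read in the opposite direction by at least 2-fold and the mean of the probes lay within 2-fold. Of 33 HOX genes compared 12 were lower and 9 higher, and the 4 clusters differed. In Hoxc 7 of 9 genes were lower and none was higher (median -2.66), and in Hoxd 5 of 5 were higher (median 1.66), with Hoxd3 and Hoxd9 at -5.59 and -5.68 in MF and -1.73 and -1.93 in iHep. Hoxa (1 higher and 2 lower of 10) and Hoxb (3 and 3 of 9) were mixed. Hoxb13, the hindmost gene of its cluster, read -4.97 in MF and 1.31 in iHep (77.6-fold higher) and was not well above background in PH, and Hoxa9 was 3.67-fold higher at 1.24 and 3.11. Hoxa11 was read in MF alone and at least 102-fold lower.

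Genes of macrophages had the lowest median of all 98 lists. Of 50 compared 46 were at least 2-fold lower, 39 of them at least 8-fold, and 1 was higher (median -5.29, and relative to all genes -4.18 under normexp and -4.12 in the authors' values). C1qc, a chain of complement C1q made by macrophages, read 4.81 in MF and was not well above background in iHep. Lyz1, a lysozyme, read 6.24 and -3.18, the inhibitory receptors Lilrb4a and Pirb 4.33 and 3.44 in MF against -6.71 and -6.46 in iHep, and Csf1r, the growth factor receptor of the lineage, 3.24 and -2.34. Cd14 stayed within 2-fold at -0.96 and -0.65, and Slfn2 was 2.90-fold higher. Complement genes outside the plasma set were lower in 16 of 23 cases, with the regulator Cd55 at least 171-fold lower and the receptors C5ar1 and C3ar1 at least 126-fold lower and 58.4-fold lower. The chaperone Clu, clusterin, was the 1 member higher, from 0.82 to 3.92, and C3 itself read 1.51 and 1.57.

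Of 51 lysosome genes 35 were lower and none was higher (median -1.59). Ctss, the cathepsin of antigen-presenting cells, read 4.69 in MF and -6.26 in iHep, and Atp6v0d2, a proton pump subunit of macrophages and osteoclasts, was at least 296-fold lower, while the saposin precursor Psap and the hydrolases Man2b1 and Asah1 were 7.87-fold lower, 7.71-fold lower and 6.92-fold lower. Gla, Grn and Cd63 stayed within 2-fold, Gla at 4.57 and 4.26. Of the 39 lysosome genes with a promoter 20.5% held the CLEAR motif GTCACGTG, against 3.17% of compared genes, and over all compared genes with it the median difference was -0.06. The summed level of the macrophage markers was lower beside these genes, 6.44 in MF and 0.58 in iHep, and its part in them was not tested.

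Of 53 receptor tyrosine kinase ligands and receptors 25 were lower and 13 higher. Gas6, the ligand of the TAM receptors, read 5.72 in MF and -7.15 in iHep, close to the lowest level well above background there (-7.32). It had the second greatest difference downward of genes read on both arrays. Hgf, the hepatocyte growth factor made by stroma, read -1.03 in MF but was not well above background in iHep. Fgf10 and Pdgfd were read in MF alone as well (at least 85.3-fold lower and at least 79.1-fold lower). Areg, a ligand of the EGF receptor, went from -5.13 to 1.31, its relative Ereg from -1.23 to 2.12, and Btc was read in iHep alone (at -2.71, within 2-fold under normexp). Fgf21, a hormone of the stressed liver, was 23.8-fold higher. Vegfa and Pdgfa stayed within 2-fold, Pdgfa at 3.69 and 3.76.

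The insulin-like growth factor axis was lower in 11 of 19 genes and higher in 1, with a median of -2.0 (relative to all genes -0.99 in the authors' values). Igf1 read 4.05 in MF, -2.25 in iHep and 5.97 in PH, and the binding proteins Igfbp2 and Igfbp5 were 449-fold lower and 74.7-fold lower. Grb10 and Grb14, adaptors that restrain the receptors, were at least 157-fold lower and 71.0-fold lower. The receptor Igf1r did not differ by 2-fold, at 0.56 and 0.51, nor did Irs1, and Irs2, the main insulin receptor substrate of liver, was 3.42-fold higher. 

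In the WNT list 28 of 50 genes were lower and 8 higher. Secreted antagonists and receptors were among the lower genes: Dkk3 read 4.43 in MF and -6.59 in iHep, Fzd1 2.92 and -7.04, and Sfrp1, Dkk2 and Ror2 were read in MF alone (at least 847-fold lower, at least 702-fold lower and at least 578-fold lower). The agonist Rspo1 was at least 165-fold lower. Among the 8 higher were 5 ligands, of which Wnt10a went from -3.82 to 2.42, Wnt10b was 10.6-fold higher and Wnt7b 7.67-fold higher, and 2 feedback inhibitors, Rnf43 (45.5-fold higher) and Notum (3.58-fold higher). In the TGF-beta and activin list 17 of 31 were lower and 2 higher. Follistatin (Fst), the activin antagonist, read 3.97 in MF and was not well above background in iHep, the activin subunit Inhba 2.53 and -2.47, and the ligand Tgfb2 0.21 and -4.35. Parts of the signal chain lay within 2-fold, with the receptor Tgfbr1 at 2.80 and 2.41, the signal carrier Smad3 at 2.37 and 2.60 and its inhibitor Smad7 at 2.82 and 2.76. In the BMP list 12 of 22 genes were lower and 1 higher: the antagonist Nbl1 was 43.9-fold lower and the receptor Bmpr1a stayed within 2-fold, and of the ID genes, which BMP signals induce, Id4 was at least 481-fold lower and Id3 2.54-fold higher.

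Of 38 chemokines and receptors 15 were lower and 11 higher. Cxcl12, the stromal factor that holds blood stem cells and lymphocytes, read 1.94 in MF and was not well above background in iHep, and Cxcl14 and Ccl11 were at least 2598-fold lower and at least 477-fold lower. The neutrophil attractants Cxcl2 and Cxcl3 were read in iHep alone, at 0.68 and -1.93, and Cxcl1 went from -0.95 to 4.10. Ccl2, Ccl7 and Ccl4 stayed within 2-fold and high on both arrays, Ccl2 at 5.17 and 4.93. Among 56 genes of NF-kB and inflammatory cytokines 17 were lower (30.4%, against 23.4% of all genes) and 12 higher (21.4%, against 20%). Nos2, the inducible nitric oxide synthase, read -4.59 in MF and 0.65 in iHep, and the iron-binding Lcn2 -2.21 and 1.92. Icam1 and Il1rl1 were at least 35.0-fold lower and 93.1-fold lower. Rela, the NF-kB subunit itself, read 3.56 and 3.72.

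Interferon genes were mixed, with 18 of 54 higher and 9 lower. The higher members included the oligoadenylate synthetases, sensors of double-stranded RNA: Oas2 read -0.31 in MF and 3.55 in iHep, Oasl1 -0.70 and 2.96, and Oas1g and Oas3 were 34.3-fold higher and 11.4-fold higher (Oas3 within 2-fold under normexp). Rsad2, viperin, was 15.6-fold higher. Isg15, Ifi27 and Ifitm3, also interferon targets, lay within 2-fold, Isg15 at 3.73 and 3.90, and Ifit3 was 9.13-fold lower. The myeloid regulator Irf8 was read in MF alone (at least 212-fold lower). An interferon-stimulated response element (the letters GAAA repeated after any 2 bases) was present in 47.6% of the 42 interferon genes with a promoter, against 3.39% of compared genes, and compared genes with it had a median difference of 0.00. In the prostanoid list 13 of 21 genes were lower and 4 higher: the leukotriene genes Alox5ap and Alox5 were 35.4-fold lower and at least 33.1-fold lower, prostacyclin synthase Ptgis 15.4-fold lower, and its receptor Ptgir 4.93-fold higher.

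Imprinted genes are expressed from 1 parental copy, and many regulate fetal growth; of 33 such genes 21 were lower and 3 higher (median -2.37). The non-coding RNA Meg3 read 4.77 in MF, and in iHep it was not well above background (at least 4386-fold lower), and Plagl1 and Sgce were 223-fold lower and 164-fold lower. Peg3 was the opposite case, read in iHep alone (at least 9.76-fold higher, within 2-fold under normexp). Neighbouring genes were then followed along the chromosomes, in the order of the reference annotation, by a rule added after the data were seen: runs of at least 6 compared neighbours that were all past 2-fold in 1 direction. There were 8 runs higher and 8 lower. The longest, 9 genes on chromosome 12 from Wdr25 to Dio3, was lower throughout and holds the imprinted Dlk1, Meg3, Rtl1 and Dio3; Begain read 0.15 in MF and -6.16 in iHep, Mirg 0.18 and -6.86 and Dlk1 -0.23 and -3.35. A run of 7 lower genes on chromosome 1 starts with the G-protein regulators Rgs2, Rgs1 and Rgs18 and ends with the arachidonate genes Pla2g4a (9.37-fold lower) and Ptgs2 (3.25-fold lower) and with Pdc, and another on chromosome 8 runs from Adam32 to the growth factor receptor Fgfr1 (2.75-fold lower, within 2-fold relative to genes of the same level). Higher runs included 7 genes on chromosome 15 around the water channels Aqp2, Aqp5 and Aqp6, with Aqp5 at -1.19 and 2.58. Another held 6 genes on chromosome 5 from Pttg1ip2 to Steap1 (5.58-fold higher). In runs of near-identical paralogs, as the Ssxb and Slx genes of the X chromosome (7 and 8 genes), separate expression and 1 signal read by several probes cannot be told apart. The genes of these runs that the text names were chosen after their values were seen.

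Cell division was the programme with the highest median in iHep. Of 67 mitosis genes 63 were at least 2-fold higher and none lower (median 2.09), against 20% higher among all genes compared. Ect2, which sets up the cleavage furrow, read -1.45 in MF and 2.27 in iHep, the spindle kinases Aurkb and Aurka -2.86 and -0.03 in MF against 0.63 and 3.07 in iHep, and Mybl2, the activator of late cell cycle genes, -0.94 and 2.55. Of the 4 members within 2-fold, the checkpoint protein Bub3 read 1.83 and 1.12. The differences were mostly of moderate size: 6 of 67 genes passed 8-fold and the greatest difference was 3.72. In PH the median level of the list was -3.34, against -1.41 in MF and 1.02 in iHep.

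Promoters of genes switched on late in the cell cycle often hold a CHR element (TTTGAA) beside CCAAT boxes, bound by the MuvB complex and by NF-Y. In the 250 bases before the start, 34.5% of the 58 mitosis genes with a promoter held TTTGAA, against 14.2% of compared genes, and 67.2% held CCAAT, against 39.7% of compared genes. Both were present in 31.0% of the mitosis genes and in 5.40% of compared genes. Over all compared genes with both, 24.8% were higher in iHep, against 19.6% of the others. The stretch that spans both elements is shown for 4 mitosis genes, with CHR and CCAAT letters of either strand in capitals: Ect2 (3.72, chr3:27153919-27154002, minus strand), the separase Espl1 (2.55, chr15:102296239-102296281, plus), the spindle motor Kif11 (2.32, chr19:37376327-37376378, plus) and the condensin Smc2 (2.21, chr4:52439066-52439116, plus).
Ect2: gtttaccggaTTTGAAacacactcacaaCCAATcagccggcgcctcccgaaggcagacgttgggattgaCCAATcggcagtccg
Espl1: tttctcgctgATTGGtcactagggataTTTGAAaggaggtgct
Kif11: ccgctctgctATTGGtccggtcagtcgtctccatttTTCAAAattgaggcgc
Smc2: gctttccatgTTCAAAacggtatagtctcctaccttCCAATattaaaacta
Ect2 holds 2 CCAAT boxes in this stretch and the others 1 each; Espl1 and Kif11 hold theirs on the opposite strand, as ATTGG.

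DNA replication had 28 of 44 genes higher and none lower (median 1.22). The replication factor Mcm10 read -1.58 in MF and 1.85 in iHep, the primase Prim1 -1.72 and 1.47, and the licensing factor Cdt1 -0.08 and 2.80. Pcna, the sliding clamp, was high on both arrays at 2.83 and 3.80 and just under 2-fold. DNA repair genes were higher in 27 of 43 cases and lower in 1, and the higher ones included the recombination genes Rad51b (6.95-fold higher) and Blm (7.76-fold higher), the end-joining polymerase Polq (7.95-fold higher) and the checkpoint kinase Chek1, at -0.16 and 3.43. Nucleotide synthesis was higher in 19 of 31 cases and lower in 2, with thymidylate synthase Tyms at -3.03 and -0.86 and thymidine kinase Tk1 at 1.53 and 3.58. The E2F motif TTTNGCGC was present in 13.9% of the 36 replication genes with a promoter and in 1.98% of compared genes.

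The genes that govern entry into the cycle were divided, with 11 of 31 higher and 9 lower. Ccne2, a cyclin that triggers S phase, read -5.34 in MF and -0.67 in iHep, Myc 1.15 and 3.50 and Cdk6 -5.26 and -2.93, a difference within 2-fold under normexp. Several CDK inhibitors, the brakes of the cycle, were lower. Cdkn2a, the senescence locus, read 4.77 in MF and 0.71 in iHep, Cdkn2b 3.43 and 0.86, and Cdkn1c -0.87 and -3.43. The other MYC family members were lower, Mycn 28.9-fold lower and Mycl 8.46-fold lower, and Cdk4 and Ccnd3 did not differ by 2-fold. Of 31 p53 targets 13 were lower and 4 higher. Cdkn1a, the p53-induced brake p21, read 2.65 and 0.17, and Ccng1 was 6.61-fold lower, whereas Sesn2 was 4.62-fold higher and the p53 antagonist Mdm2 stayed within 2-fold. Replication-dependent histones, whose messages rise in S phase, were mixed (9 of 25 higher, 6 lower), with H2bc4 and H1f2 13.5-fold lower and 12.2-fold lower and H4c14 and H2ac11 2.85-fold higher and 2.55-fold higher; these genes are near-identical copies and their probes may share signal.

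Genes for making ribosomes were higher in 31 of 57 cases and lower in none (median 1.13). The pseudouridine synthase Dkc1 read -0.84 in MF and 1.82 in iHep, the snoRNP protein Nop56 3.30 and 5.37, and Polr1a, the catalytic subunit of RNA polymerase I, 0.35 and 2.46. Npm1 read 4.42 and 4.57. Of 66 cytosolic ribosomal proteins 31 were lower and 0 higher (median -0.98), but they lie in the level range where the median of all genes was below 0. Relative to genes of the same level 1 of 66 was lower, and relative to all genes the list median was -0.04 under quantile normalization and 0.01 in the authors' values. Rpl7 read 6.49 in MF and 4.51 in iHep, within 2-fold under both of these, and Rpl38 6.05 and 5.38. Nuclear pore and import genes were higher in 10 of 30 cases and lower in none, led by Nup210, a membrane pore protein of tissue-specific use, from -3.39 to 1.05.

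Amino acid supply was a further programme with many genes higher: of 32 target genes of ATF4, the translation-controlled activator of amino acid supply, 20 were higher and 2 lower (median 1.45). The amino acid transporter Slc7a3 read -2.26 in MF and 2.95 in iHep, the cystine carrier Slc7a11 -5.02 and -1.39, and Cth, which makes cysteine, -1.46 and 2.84. The mitochondrial folate enzymes Mthfd2 and Aldh1l2 were 6.30-fold higher and 5.31-fold higher. Atf4 itself, Trib3 and Asns were within 2-fold and already high in MF, Atf4 at 5.05 and 4.79. A list of 22 genes held aminoacyl-tRNA synthetases, which include known ATF4 targets, and their complex partners Aimp1 and Aimp2. Of these 22 genes 4 were higher (18.2%, near the 20% of all genes) and none lower (against 23.4%), Mars1 at 0.53 and 1.72. A list of 40 genes for folding, quality control and export in the endoplasmic reticulum included chaperones of the parallel unfolded protein arm. Of these 40 genes 0 were higher (against 20% of all genes) and 13 were lower (32.5%, against 23.4%). Relative to genes of the same level 10 of 40 were lower, as were 3943 of all 17241 genes.

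The amino acid response element TGATGNAA was present in 29.6% of the 27 listed genes with a promoter and in 2.94% of compared genes. The genes were listed as ATF4 targets, so this contrast describes the list and not the 2 arrays. Over all compared genes with the element 25.4% were higher, against 19.7% of the rest. It is shown in capitals, on either strand, for 3 genes of the list, Fgf21 (4.57, chr7:45615612-45615639, minus strand), Slc7a11 (3.63, chr3:50443643-50443689, minus) and the glutathione-cleaving Chac1 (2.25, chr2:119351039-119351066, plus).
Fgf21: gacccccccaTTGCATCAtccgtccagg
Slc7a11: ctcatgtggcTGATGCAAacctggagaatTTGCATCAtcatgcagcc
Chac1: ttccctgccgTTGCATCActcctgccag
Slc7a11 holds 2 of these elements, facing in opposite directions, and Fgf21 and Chac1 hold 1.

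**Figure D4:**
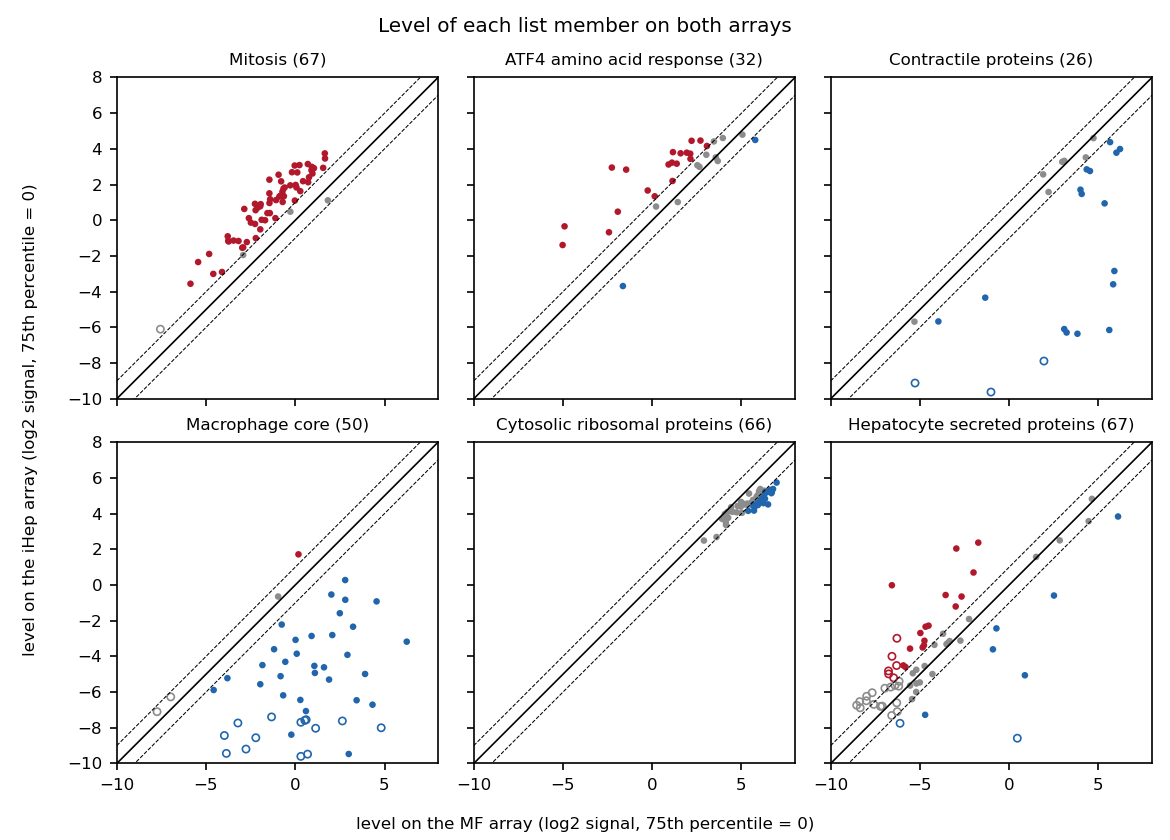
Level of each compared member of 6 gene lists on the MF array (horizontal axis) and the iHep array (vertical axis), as log2 signal with the 75th percentile at 0, with equality as a solid line, 2-fold as dashed lines and bounds hollow. Most mitosis genes lie in a band above the line, most contractile genes lie below it with differences down to -11.76 (Myl9), macrophage genes scatter far below it, and ribosomal proteins form a tight group near the lower dashed line.

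Epithelial junctions and filaments were higher in part. Of 14 keratins 7 were higher and 2 lower (median 1.12, and 0.20 relative to all genes under normexp). The simple epithelial pair Krt8 and Krt18, which hepatocytes carry, read -4.14 and -0.66 in MF and 0.91 and 3.66 in iHep. Krt19, a duct keratin that adult hepatocytes lack, went from -1.51 to 0.85 and the gut keratin Krt20 from -1.80 to 1.53, while the duct keratin Krt7 was 3.10-fold lower. Desmosome genes, for the rivets between epithelial cells, were divided. Desmoplakin Dsp read -5.16 in MF and -0.06 in iHep, periplakin Ppl -5.36 and -1.30, and Dsg2 was read in iHep alone (at least 8.13-fold higher, within 2-fold under normexp), but Jup and Dsc2 were 3.35-fold lower and at least 2.90-fold lower (Dsc2 within 2-fold with a common floor). Of 10 desmosome genes 6 were higher and 3 lower.

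Of 27 tight junction genes 14 were higher and 3 lower (median 1.08, and 0.20 relative to all genes under normexp). The polarity protein Crb3 was read in iHep alone at -0.95 (at least 40.9-fold higher, within 2-fold under quantile normalization), Lsr, which seals corners between 3 cells, went from -1.59 to 3.44, and Cgn from -2.37 to 0.70. Claudins, the sealing proteins of these junctions, were uneven. Cldn6, Cldn2, Cldn19 and Cldn15 were at least 18.7-fold higher, at least 10.5-fold higher, 10.7-fold higher and 8.30-fold higher (Cldn2 within 2-fold under normexp), whereas Cldn3 was at least 10.9-fold lower and Cldn14 did not differ by 2-fold. Of 16 cadherins and connexins 7 were higher and 7 lower. Cdh11, the cadherin of mesenchyme, read 3.82 in MF and was not well above background in iHep, and Cdh1, E-cadherin, was not well above background in MF and read -1.12 in iHep. Cdh16 and Cdh6, cadherins of kidney epithelium, were 48.2-fold higher and 23.1-fold higher, and Cdh2, N-cadherin, which hepatocytes share with mesenchyme, read 3.17 and 1.42. Among connexins the liver connexin Gjb2 was at least 58.7-fold lower while Gjb1, the main hepatocyte connexin, stayed within 2-fold at -1.63 and -0.77.

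Among 21 epithelial regulators 8 were higher and 2 lower. Esrp1, the splicing regulator that sets epithelial isoforms, read -0.63 in MF and 3.40 in iHep, Grhl1 -4.12 and 0.23, and Klf5 -3.77 and 0.10, while Elf3 and Tfap2a were read in iHep alone (at least 17.5-fold higher and at least 23.6-fold higher). Sox9 and Ovol2 stayed within 2-fold. Genes of epithelia other than liver were also among those higher. Gcnt3, a mucin branching enzyme, read -6.10 in MF, 0.60 in iHep and -6.31 in PH, and Wfdc2, a secreted antiprotease of airway and genital tract, -3.15, 3.38 and 0.37. Vil1, the brush border villin, was read in iHep alone at 0.32, while Anpep, a brush border peptidase also made by macrophages and fibroblasts, was 467-fold lower. Pax8, the factor of thyroid and kidney, was read in iHep alone at -0.44, and the kidney protein Lrp2 was 42.0-fold lower. Counts in these tissue lists were small: 5 of 19 intestinal, 5 of 14 kidney and 5 of 14 mucin and secretory genes were higher, against 1, 3 and 0 lower.

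Genes of the hepatic programme lay on both sides, with list medians from 0.00 to 0.52. Of 29 endoderm and liver transcription factors 9 were higher (31.0%, against 20% of all genes) and 5 lower (17.2%, against 23.4%). Hnf4a, the nuclear receptor that maintains hepatocyte identity, read -5.62 in MF, 1.04 in iHep and 6.0 in PH, Foxa2 -3.92, 1.02 and 1.29, and Onecut2 -3.61, 0.39 and 3.07. The CCAAT-binding factors were lower: Cebpa, which promotes the mature hepatocyte state, was 18.4-fold lower and Cebpb 2.91-fold lower (Cebpb within 2-fold under quantile normalization and in the authors' values), with Cebpd within 2-fold. Whether a probe read a copy carried by the virus was not tested. Secreted liver proteins were higher in 22 of 67 cases and lower in 8, at a median level of -5.20 in MF, -4.54 in iHep and 5.52 in PH. Retinol-binding Rbp4 read -2.96, 2.04 and 5.49 on the 3 arrays, ceruloplasmin Cp -1.73, 2.37 and 5.48, and haemopexin Hpx -3.56, -0.56 and 5.85. The complement members Serping1 and C4b, which fibroblasts and macrophages also make, were 61.3-fold lower and 8.58-fold lower.

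In xenobiotic metabolism, at a median of 0.00, 22 of 78 genes were lower (28.2%) and 15 higher (19.2%). Ugt2b34, a glucuronosyltransferase, read -4.73 in MF, 1.97 in iHep and 5.06 in PH, and Cyp3a11, the main drug-oxidising P450 of mouse liver, was read in iHep alone of the 2 at -1.28. The glutathione transferase Gstk1 and the aldehyde dehydrogenase Aldh1a1 were 47.5-fold lower and 11.5-fold lower. Por, the electron donor of all microsomal P450s, read 4.49 and 4.70. In intermediary metabolism 11 of 53 genes were higher (20.8%, near the 20% of all genes) and 8 lower (15.1%, against 23.4%). The higher ones included Gldc of glycine cleavage (15.7-fold higher) and Cbs of cysteine synthesis (5.24-fold higher), and the lower ones the urea cycle enzyme Ass1 (3.41-fold lower). Of 27 hepatocyte transporters 7 were higher (25.9%) and 4 lower, with the organic anion carrier Slco2b1 11.1-fold higher and the arginine carrier Slc7a2 39.2-fold lower. Progenitor and bile duct genes were higher in 9 of 19 cases (47.4%, against 20% of all genes) and lower in 4 (21.1%, against 23.4%). Afp, the fetal counterpart of albumin, read -2.60 in MF, 1.73 in iHep and -2.80 in PH, and Aqp1, a duct water channel, -1.65, 3.45 and 5.81. Dlk1 and Gpc3, also fetal liver genes, were 8.71-fold lower and 13.2-fold lower.

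Of 12 oncofetal RNA-binding proteins and growth regulators, a list that shares Afp, Dlk1 and Gpc3 with the progenitor genes above, 8 were higher and 2 lower. The median was 1.53, and 0.50 relative to all genes in the mean of probes. The RNA-binding proteins Igf2bp1, Igf2bp2 and Igf2bp3 read -3.89, 0.59 and -1.49 in MF and 1.33, 1.73 and 0.48 in iHep, the chromatin protein Hmga2 0.85 and 3.92, and Lin28b, which blocks let-7 maturation, was read in iHep alone (at least 3.17-fold higher, within 2-fold under normexp and in the mean of its probes). Its relative Lin28a did not differ by 2-fold, and Trim71 was 7.46-fold higher with probes that disagree, within 2-fold under normexp and in the mean of its probes. Among 43 chromatin regulators 13 were higher and 6 lower: the de novo methyltransferase Dnmt3b was 6.84-fold higher, the helicase Hells 6.33-fold higher and Ezh2, the Polycomb methyltransferase, 5.83-fold higher, whereas the remodeller Smarca2 was 4.50-fold lower and its counterpart Smarca4 lay within 2-fold. Pluripotency genes were mixed (7 of 16 higher, 4 lower), with Tfcp2l1 and Tdgf1 17.8-fold higher and 8.56-fold higher (Tdgf1 within 2-fold in the mean of its probes) and Nanog and Klf2 14.1-fold lower and 161-fold lower. Of 30 germline genes 7 were higher (23.3%, near the 20% of all genes) and 3 lower, the higher ones including Pnma5 (157-fold higher), the greatest difference upward of genes read on both arrays, and Rhox5 (29.1-fold higher).

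Lists of core metabolism and of protein and RNA turnover differed in how many genes lay within 2-fold, against 56.6% of all genes. Of 29 citric acid cycle genes 28 lay within 2-fold, the exception being the cytosolic enzyme Idh1 (5.87-fold lower), and citrate synthase Cs read 4.37 in MF and 4.21 in iHep. Of 62 respiratory chain genes 2 were higher and 7 lower. The 2 higher, Cox4i2 and Cox6a2, are tissue-restricted forms (3.01-fold higher and 2.75-fold higher), and Cox4i1, the common form of the first, was 2.72-fold lower. The proteasome had 1 of 35 genes higher and 3 lower, and antigen presentation by MHC class I 1 of 25 higher and 3 lower. Splicing had 10 of 52 higher (19.2%, near the 20% of all genes) and 1 lower (1.92%, against 23.4%). H2-K1, a classical class I gene, read 4.66 and 4.62, while Nlrc5, the activator of class I genes, was 6.06-fold higher and the lipid-presenting Cd1d1 59.3-fold lower. Autophagy genes were within 2-fold in 17 of 27 cases, with 8 lower that included the LC3 proteins Map1lc3a and Map1lc3b (5.90-fold lower and 2.57-fold lower). Primary cilium genes had 5 of 32 higher (15.6%, against 20% of all genes), 4 lower (12.5%, against 23.4%) and 23 within 2-fold.

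Glycolysis was mixed, with 11 of 29 genes lower and 5 higher; 8 were lower relative to genes of the same level. The pyruvate kinase of liver, Pklr, was read in iHep alone (at -2.84, within 2-fold under normexp), and hexokinase Hk3 of myeloid cells and the lactate carrier Slc16a3 were 28.9-fold lower and 14.3-fold lower. Ldha and Gapdh, both at high levels, were 4.14-fold lower and 3.42-fold lower, both within 2-fold under quantile normalization and in the authors' values. Lipid droplet genes were among those higher: Cidec was read in iHep alone, at -1.66, Plin4 went from -0.95 to 2.74, and Dgat2, the last step of triglyceride synthesis, from -0.92 to 1.5, while Mgll, which releases fatty acids, was 178-fold lower. Fatty acid synthesis and droplets together had 11 of 35 higher and 5 lower. Cholesterol synthesis had 2 of 27 higher and 9 lower, with Fdft1 4.42-fold lower. Of 35 antioxidant genes 10 were lower and 3 higher; Gpx3, a secreted peroxidase, read 5.36 in MF and was not well above background in iHep, and Nqo1 and Hmox1, targets of NRF2, were 8.40-fold lower and 7.74-fold lower, while another target, Osgin1, was 7.74-fold higher. Of 29 heat shock genes 11 were lower and 2 higher, the small heat shock proteins among them: Hspb1 read 5.07 in MF and -6.99 in iHep and Cryab 3.69 and -0.51, against 5.44 and 4.99 for Hsp90ab1.

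The lists for signals of ERK, Notch, Hedgehog and Hippo each held genes of both directions. So did all genes compared, with 20% higher and 23.4% lower, so genes in both directions do not set these lists apart. Among 37 immediate early and ERK feedback genes 10 were higher and 5 lower, with Fosl1, an AP-1 subunit, at -1.59 in MF and 1.55 in iHep and Nr4a1, an orphan receptor of the early response, at 3.06 and -0.48, while Egr1 lay within 2-fold. In the Notch list 5 of 18 genes were higher and 5 lower. Its receptors went both ways, Notch3 of mural cells 123-fold lower and Notch1 2.46-fold higher. In the Hedgehog list 5 of 15 genes were lower and 3 higher: Gli1, an activator and target of the pathway, was read in iHep alone (at least 25.4-fold higher), the ligand Dhh went from -5.63 to -0.91, and the co-receptors Gas1, Boc and Cdon were 6.39-fold lower, 3.76-fold lower and 3.00-fold lower. Ptch1, another target of the pathway, had a bound within 2-fold. In the Hippo list 6 of 23 genes were lower and 3 higher, Yap1 at 2.24 and 2.08, Tead1 2.78-fold lower and Tead4 7.30-fold higher (within 2-fold under normexp). Of 55 guidance cues 16 were lower (29.1%, against 23.4% of all genes) and 11 higher (20%, as of all genes), with Slit3 383-fold lower and Efna1 5.87-fold higher.

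Genes of other lineages were counted in the same way. Of 21 cardiac genes 10 were lower and 3 higher, and the troponin Tnnt2 read -3.59 in MF and 1.68 in iHep while the troponin Tnni3 was at least 15.7-fold lower. Of 22 pancreas genes 8 were higher and none lower, while the 4 pancreas markers all lay within 2-fold (summed level -1.17 in MF and -0.89 in iHep). The trypsinogens Try4 and Try5, which are near-identical, were read in iHep alone of the 2 (at least 49.0-fold higher and at least 41.0-fold higher). In fat metabolism Ppargc1a, the coactivator of mitochondrial genes, went from -4.63 to 0.80 and the peroxisomal oxidase Acox2 from -5.32 to -0.80, whereas 9 of 31 fatty acid oxidation genes were lower and 6 higher. Of 25 metal handling genes 9 were higher and 9 lower: the iron importer Tfrc read -0.12 and 2.60, and the iron exporter Slc40a1, ferroportin, 2.43 and -0.61. In MHC class II presentation 5 of 12 genes were lower and 4 higher, with H2-Ab1 47.9-fold lower, its chaperone Cd74 10.5-fold higher and Cd40, the receptor for helper T cell signals, 32.1-fold higher. In the circadian clock 6 of 18 genes were higher and 3 lower, Cry1 14.9-fold higher and Rora 37.3-fold lower. Motile cilium genes had 11 of 26 lower and 3 higher; the 3 higher, Foxj1 (34.0-fold higher), Ccno (11.1-fold higher) and Rfx2 (at least 9.14-fold higher, within 2-fold under normexp), are regulators of ciliogenesis, and axonemal genes such as Cfap45 and Rsph9 were 21.5-fold lower and 16.5-fold lower.

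A grouping that does not rest on the lists, by the letters that begin a gene symbol, gave 131 families of at least 15 compared genes. Families with the highest share of genes higher in iHep were claudins (Cldn, 9 of 18), the Rad repair genes (9 of 18, with 0 lower), dual-specificity phosphatases (Dusp, 11 of 23) and cadherins (Cdh, 7 of 15, with 5 lower). Dual-specificity phosphatases switch off MAP kinases; Dusp2 and Dusp18 were 19.8-fold higher and 7.71-fold higher, and Dusp1 and Dusp6 differed by 0.01 and 0.49 (log2). Families with the highest share lower were matrix metalloproteinases (Mmp, 11 of 15), regulators of G-protein signalling (Rgs, 14 of 20) and the Adamts proteinases (10 of 16). Rgs16 read 1.95 in MF and -5.18 in iHep and Rgs11 was the 1 member higher (11.1-fold higher). Among aldehyde dehydrogenases (Aldh, 11 of 21 lower, 2 higher), the retinoic acid enzymes Aldh1a2 and Aldh1a3 were 72.8-fold lower and at least 25.6-fold lower, and Aldh3a1 and Aldh1l2 were 5.30-fold higher and 5.31-fold higher. Autophagy genes named Atg were within 2-fold in 17 of 18 cases and translation initiation factors (Eif) in 87.0% of 54. Olfactory receptors, which neither cell type is known to use, had 81 of 375 compared genes higher and 23 lower, and pheromone receptors (Vmn) 25 of 113 and 9; the shares higher (21.6% and 22.1%) lie near the 20% of all genes, and the shares lower (6.13% and 7.96%) lie below the 23.4% of all genes. Chosen after their values were seen were also Cnn2, Myl6, Espl1, Kif11, Smc2 and Chac1, shown above for their sequences. The probes of 61 genes differed by at least 2-fold in opposite directions, and for these, as for all genes with several probes, the value is that of the probe with the highest mean level.

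**Figure D5:**
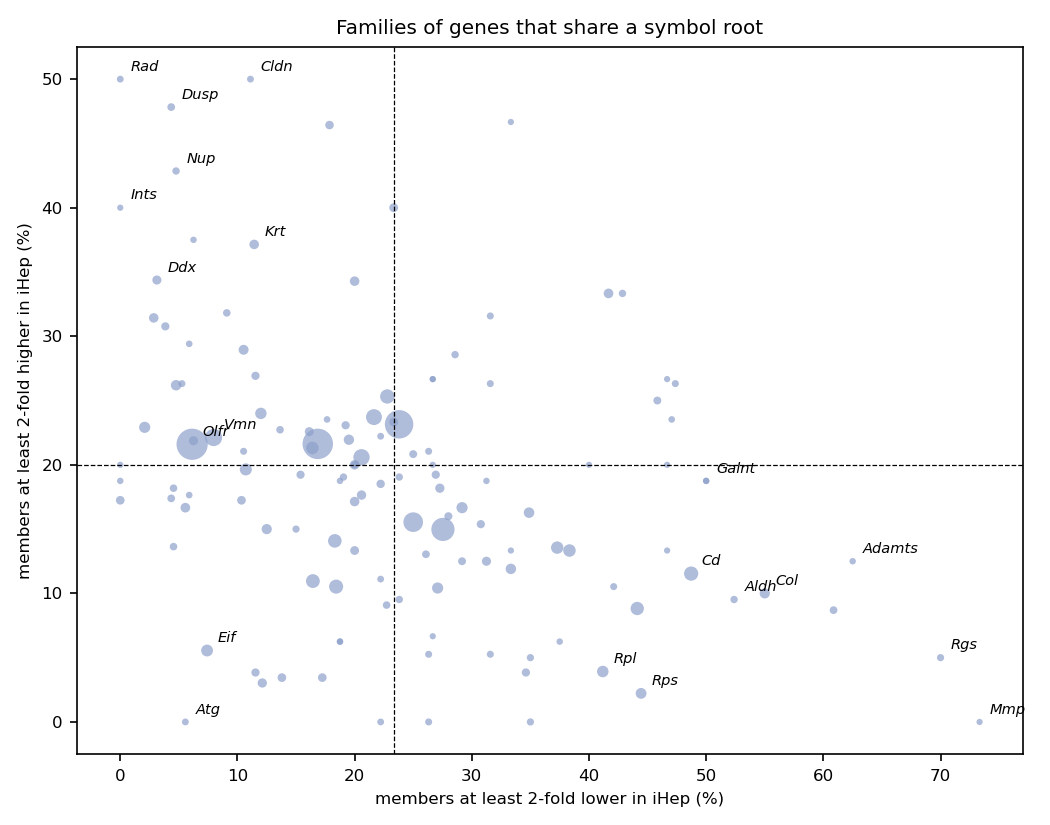
Share of members at least 2-fold higher (vertical axis, %) against the share at least 2-fold lower (horizontal axis, %) for 131 families of genes with a common symbol root, with circle area growing with the number of genes compared and dashed lines at the shares of all genes (20% and 23.4%). Mmp, Rgs and Adamts lie at the right and Rad, Cldn and Dusp at the top, and the olfactory receptors (Olfr) lie near the horizontal line.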

How the data were processed

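RNA of MF, iHep and PH was read on 1 Agilent one-colour array each. Per the labels' protocols the RNA came from a kit made for blood, globin messages were removed, and Cy3-labelled cRNA was amplified; pools of 5 samples are stated in the design text. The deposited scanner files hold spot intensity, background-corrected by Feature Extraction 11.0.1.1 per the file headers (9.1 per the submitters' processing notes). The authors' deposited table holds log2 values of 25993 probes; against the scanner values its columns correlated at 0.997, 0.998 and 0.990, their medians were 7.03, 7.02 and 7.08, and differences between arrays ran the same way (slope 0.904). Its normalization is not given in the sources used here, and it was used as an alternative.

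Control spots and outlier spots (190 on MF, 230 on iHep) were left out, and log2 processed signals were set relative to the 75th percentile of each array. Repeated spots were averaged, and the probe with the highest mean level stood for a gene, which counted as above background where any of its probes was. Where a gene was read on 1 array, its difference was computed against the higher of the probe's own level and the lowest level well above background (-6.30 in MF, -7.32 in iHep). Probe accessions were named through RefSeq (GRCm38.p6): 27228 of 39429 probes had a gene, and 12201 had no name and stayed out of the lists. Promoter sequences are those of RefSeq on the same build. A threshold of 2-fold was used throughout, with no test. The arrays' number limits the precision.

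The 98 gene lists, the markers and the motifs were chosen with earlier results of these data known. Genes are named from a pool set by rule, not all of which is named: members of lists of up to 16 genes, up to 6 of the greatest differences each way and 3 highest-level members within 2-fold of longer lists, the greatest differences of all genes, markers, members of families at the extremes and listed genes with opposing probes. Alternatives were normexp (offset 50), quantile normalization, median scaling, the authors' values, 2 other filters on dim probes, the mean of probes, a common floor, other fold thresholds and, added after seeing the data, centring on the running median over level (1001 genes). Counting was run on simulated differences, and 200 of 200 changed genes among 14720 were recovered for iHep over MF. The planted differences were all well past 2-fold, in genes well above background in MF, with noise of the size of repeated spots. This checks the counting steps only. It cannot show how counts hold for dim genes, for bounds or where probes of a gene disagree. Python 3.11.15, pandas 2.3.3, numpy 2.4.6, R 4.3.3 and limma 3.58.1 were used. Some list members are counted but not reported here by name.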

Additional observations from a re-analysis of the deposited data

Results flagged for a closer look

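Probes without a gene name take no part in the lists and families. Of 8632 such probes read in MF or iHep, 228 passed 8-fold upward in iHep and 201 downward. At 2-fold 19.5% were higher and 16.2% lower, against 20% and 23.4% of the named genes. Which transcripts these probes read was not tested.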

How the results depend on the processing

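No paired analysis was possible because each group has 1 array. The 3451 genes higher and 4038 lower became 2048 and 5271 under normexp, where the median of all genes shifted by -0.20, and 2603 and 2620 in the authors' values, which hold fewer genes (12439 compared). The shift was -0.11 with no filter on dim probes. At 1.5 and 0.5 times the log2 threshold 2043 and 5605 genes were past the 2-fold threshold upward, 141 and 2043 past the 8-fold threshold upward and 646 and 2772 past it downward. The 470 genes 8-fold higher became 162 under normexp, and the 1183 genes 8-fold lower became 742 in the authors' values and 716 among genes above background on both arrays.

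List medians are given relative to the median of all genes. Those that moved by more than the spread between probes (0.847) follow, each with its value under the main processing in brackets. Under normexp they were splenic mesenchyme regulators -1.33 (-0.27), motile cilia -1.51 (-0.57), keratins 0.20 (1.12) and tight junctions 0.20 (1.08). Kidney epithelium was at -0.88 (0.47), macrophage core at -4.18 (-5.29) and neutrophils and mast cells at -0.76 (0.53) under normexp as well. Of 10 splenic mesenchyme regulators compared, 3 were lower, 1 was higher and 6 lay within 2-fold under the main processing. In the authors' values they were proteoglycans and matricellular proteins -2.0 (-3.22), smooth muscle contractile -1.30 (-2.22) and cytosolic ribosomal proteins 0.0058 (-0.98). Insulin-like growth factors were at -0.99 (-2.0), macrophage core at -4.12 (-5.29) and complement outside plasma at -1.52 (-3.49) in these values. Among genes above background on both arrays they were cadherins and gap junctions 1.17 (0.05), prostanoids -0.18 (-1.70) and complement outside plasma -1.71 (-3.49). With no filter they were desmosomes 0.22 (1.47), cadherins and gap junctions -0.86 (0.05) and neutrophils and mast cells -0.95 (0.53). The oncofetal list was at 0.50 (1.53) in the mean of probes and cytosolic ribosomal proteins at -0.045 (-0.98) under quantile normalization. The causes were not tested.

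Of the 337 genes named with values past 2-fold, 16 were within 2-fold under normexp and 7 each under quantile normalization and in the mean of probes, of 6 in the authors' values (238 with a value) Bmp1 also reversed, to 0.34, and 5 were within 2-fold under running-median centring; all others kept direction and threshold under the alternatives that gave them a value, except Dsc2 with a common floor. Of the 370 differences named, 149 moved by more than the spread between probes under normexp, 46 with a common floor, 43 with no filter, 36 in the mean of probes, 14 in the authors' values and 10 under quantile normalization. Signal over background limits the genes read on 1 array alone (2169 in iHep, 801 in MF) to bounds.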
